A study of Mus musculus with 10 samples.

Results

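Cardiac myosin, the motor of the heart's thick filament, was examined through 7 genes: the heavy chains Myh6, Myh7 and Myh7b and the light chains Myl2, Myl3, Myl4 and Myl7. The members were all probe sets that the array's platform annotation assigns to 1 of these symbols alone. The rule gave 11 probe sets of 45037 that were tested, or 7 genes of 18193. A further 2 probe sets are annotated with both Myh7 and Myh6, were no members and are described only beside Myh6. Every member is described here.

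The hearts came from male SV129 mice 32 weeks old, littermates that were either PKCz -/- (KO) or wild type (WT). PKCz, the product of Prkcz, is an atypical protein kinase C. Angiotensin II (AngII), a peptide hormone used to induce cardiac hypertrophy, was infused under the skin from osmotic minipumps at 432 µg/kg/day for 14 days, and the controls of both genotypes are PBS mice by their titles and the design text but non-treated by their source label. The 4 groups were KO AngII (2 arrays), KO PBS (3 arrays), WT AngII (3 arrays) and WT PBS (2 arrays), and single arrays carry their title number, as in WT AngII 2. The labels say neither how the knockout was made nor which chamber of the heart was taken. Whether each array is a different animal is not stated either, and the p-values thus cover only the spread between arrays, which may be technical.

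Each myosin molecule pairs 2 heavy chains, which split ATP and pull on actin, with an essential and a regulatory light chain on each heavy chain's neck. Adult mouse ventricle uses mainly the fast alpha heavy chain, the product of Myh6, while the slower beta chain, the product of Myh7, is the fetal form and a classic marker of pathological hypertrophy in rodents. Myl2 and Myl3 encode the regulatory and essential light chains of the ventricle, and Myl7 and Myl4 those of the atrium. Phosphorylation of the regulatory light chain tunes how strongly the filament contracts.

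Of the 7 genes, 3 also hold a microRNA: Myh6, Myh7 and Myh7b, the heavy chains. Their mature sequences are printed because they link the 3 heavy chain genes by a seed that is shared from base 2 to base 7. The seed is the stretch from base 2 to base 8 that pairs with target transcripts. The sequences and positions are from RefSeq (GRCm38.p6), the seed is in capitals, and the microRNAs themselves were not analysed here.
mmu-miR-208a-3p: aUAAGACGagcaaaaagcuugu
mmu-miR-208b-3p: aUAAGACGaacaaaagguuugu
mmu-miR-499-5p: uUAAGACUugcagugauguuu
The first lies in Myh6 at chr14:54949072-54949093 on the minus strand, the second in Myh7 at chr14:54975710-54975731 on the minus strand, and the last in Myh7b at chr2:155622893-155622913 on the plus strand. The miR-208a-3p and miR-208b-3p seeds are the same, UAAGACG. The seed of miR-499-5p is UAAGACU, and all 3 share bases 2 to 7, UAAGAC. Myh6 and Myh7 neighbour each other on chromosome 14, with 0 annotated genes between them, and Myh7b lies on chromosome 2.

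The values are log2 expression made with RMA, a method that subtracts background, gives all arrays 1 distribution of values and combines the probes of a probe set. They ran up to 14.68 and down to 3.06, with array medians of 6.13 to 6.24. The number of arrays limits the precision. Prkcz read 5.70 to 5.87 on the 5 KO arrays and 6.23 to 6.45 on the 5 WT arrays, without overlap. The arrays fell into 2 sets by the bacterial control RNA that is added during labelling: its 24 probe sets averaged 6.90 to 7.08 on KO AngII 3, KO AngII 4 and KO PBS 4, called the low arrays here, and 12.86 to 13.33 on the other 7, the high arrays. The low arrays also had a smaller excess of 3′ over 5′ signal for actin, 0.74 to 0.83 against 0.92 to 1.70 on the high arrays, and for Gapdh, 0.02 to 0.12 against 0.18 to 0.59. Both KO AngII arrays are low and no WT array is, so the differences that involve KO AngII were also fitted with the control RNA level as a block, which rests on KO PBS 4 alone. WT AngII 2 stood apart in another way: its 8 fibroblast markers averaged 12.15 against 9.43 to 10.62 on the other 9 arrays, and its 6 macrophage markers 9.73 against 8.37 to 8.92, while the 12 cardiomyocyte markers averaged 13.46 against 13.50 to 13.56. Not every marker followed these averages. The cardiomyocyte markers Mybpc3 (13.89) and Nkx2-5 (10.13) were highest of all arrays on WT AngII 2, and the macrophage marker Cd163 read 7.11 there against 7.93 on WT PBS 5. The 8 fibroblast markers averaged 10.33 to 10.62 on KO AngII, 9.52 to 9.72 on KO PBS, 9.88 to 12.15 on WT AngII and 9.43 to 9.88 on WT PBS. In bulk heart tissue, fewer cells of a type and less RNA per cell cannot be told apart.

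The main ventricular chains filled the top of the array's scale, where probe sets varied least between arrays. A probe set was counted as near the top when its mean over the 10 arrays lay within 1 log2 unit of the highest value, that is at or above 13.68. This held for 59 probe sets, 0.131% of those tested, and for 5 of the 11 members: the brighter Myh6 probe set, Myl2 and all 3 of Myl3. Their values ranged over only 0.16 to 0.31 log2 across all 10 arrays, and the median range of the 59 was 0.27, against 0.64 for the 22460 other probe sets of at least median level. The 6 members below, the second Myh6 probe set, Myh7, Myh7b, both of Myl4 and Myl7, ranged over 0.47 to 4.52. All 5 members near the top were lowest on WT AngII 2, as were 37 of the 59 (62.7%), against 10404 of all probe sets tested (23.1%).

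**Figure D1:**
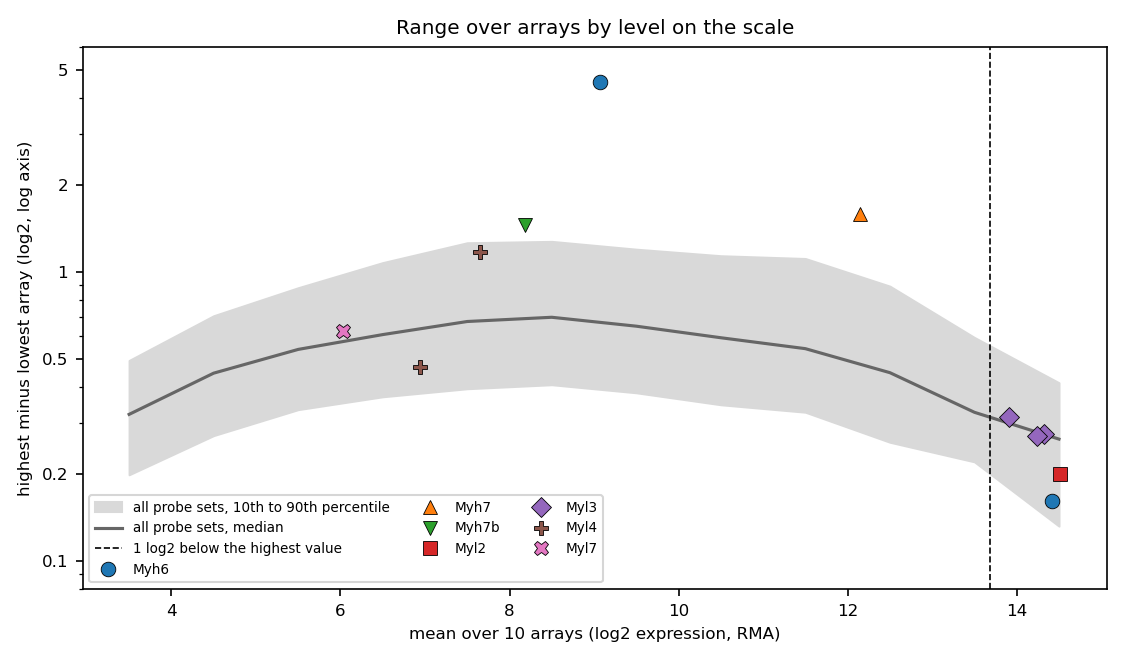
Each member probe set is placed by its mean log2 expression over 10 arrays (x axis) and by its highest minus lowest array in log2 units (y axis, log scale). The grey line and band give the median and the 10th to 90th percentile of all 45037 probe sets by level, and the dashed line marks 13.68; the 5 members to its right ranged over at most 0.31, while the second Myh6 probe set ranged over 4.52.

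Myh6, the alpha heavy chain, read almost the same on every array with its brighter probe set (1448826_at). It measured 14.42 and 14.40 on the KO AngII arrays, 14.44, 14.44 and 14.44 on KO PBS, 14.32, 14.41 and 14.40 on WT AngII, and 14.46 and 14.48 on WT PBS. Both AngII groups lay below the PBS group of their genotype without overlap. The difference AngII minus PBS was -0.03 ± 0.06 (SE) in KO with a 95% interval of -0.16 to 0.10 (limma adjusted p = 0.940) and -0.10 ± 0.06 in WT with an interval of -0.22 to 0.03 (limma adjusted p = 0.930). Without WT AngII 2 the difference in WT was -0.07. By its mean the probe set ranked 7 of 45037, and whether its reading was saturated was not tested, so the intervals bound the reading and not the transcript.

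The second Myh6 probe set (1417729_at) did not follow the first. It measured 10.95 and 10.67 on KO AngII, 6.79, 7.501 and 11.32 on KO PBS, 9.32, 7.25 and 8.91 on WT AngII, and 9.52 and 8.45 on WT PBS. Its highest values were those of the 3 low arrays, at 10.67 to 11.32, whereas the 7 high arrays of both genotypes read 6.79 to 9.52. Across the 10 arrays its correlation with the brighter probe set was r = -0.17.

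Set by group, this probe set averaged 10.81 ± 0.20 on KO AngII and 8.54 ± 2.43 on KO PBS (SD, n = 2 and 3), a difference of 2.27 ± 1.04 (limma unadjusted p = 0.0491, adjusted p = 0.892). With the control RNA level as a block the difference turned to -0.50. Without KO PBS 4 it was 3.66 (limma adjusted p = 0.0845), and without KO PBS 2 it was 1.40. In WT the means were 8.49 ± 1.09 with AngII and 8.99 ± 0.76 with PBS (SD, n = 3 and 2), a difference of -0.49 ± 1.04 that was 0.13 without WT AngII 3, 0.04 without WT PBS 3 and -1.03 without WT PBS 5. The AngII response in KO minus that in WT was 2.77 ± 1.47 (limma unadjusted p = 0.0840), or -0.01 with the block. KO minus WT under AngII was 2.32 ± 1.04 without overlap (limma unadjusted p = 0.0456, adjusted p = 0.734), or -1.85 with the block. Under PBS it was -0.45 ± 1.04, or -1.84 with the block, which there leaves KO PBS 4 out of the comparison, and 0.42 without KO PBS 2. Averaged over treatment it was 0.93 ± 0.73, or -1.85 with the block.

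Within KO PBS, the only group with arrays of both kinds, KO PBS 4 minus the mean of KO PBS 2 and KO PBS 3 was 4.17 on this probe set. This is 1 array against 2, so it carries no test and cannot separate the control RNA level from anything else particular to that array. The same difference was 3.71 on 1448827_s_at, 1 of the 2 probe sets annotated with both Myh7 and Myh6. The low arrays read 10.65 to 11.32 on it, the high arrays 7.44 to 9.72, and its correlation with 1417729_at was r = 0.993 over the 10 arrays. The other probe set annotated with both genes, 1448554_s_at, lay between 14.29 and 14.59, near the top. What sets the 2 low-lying probe sets apart from the bright ones was not tested.

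**Figure D2:**
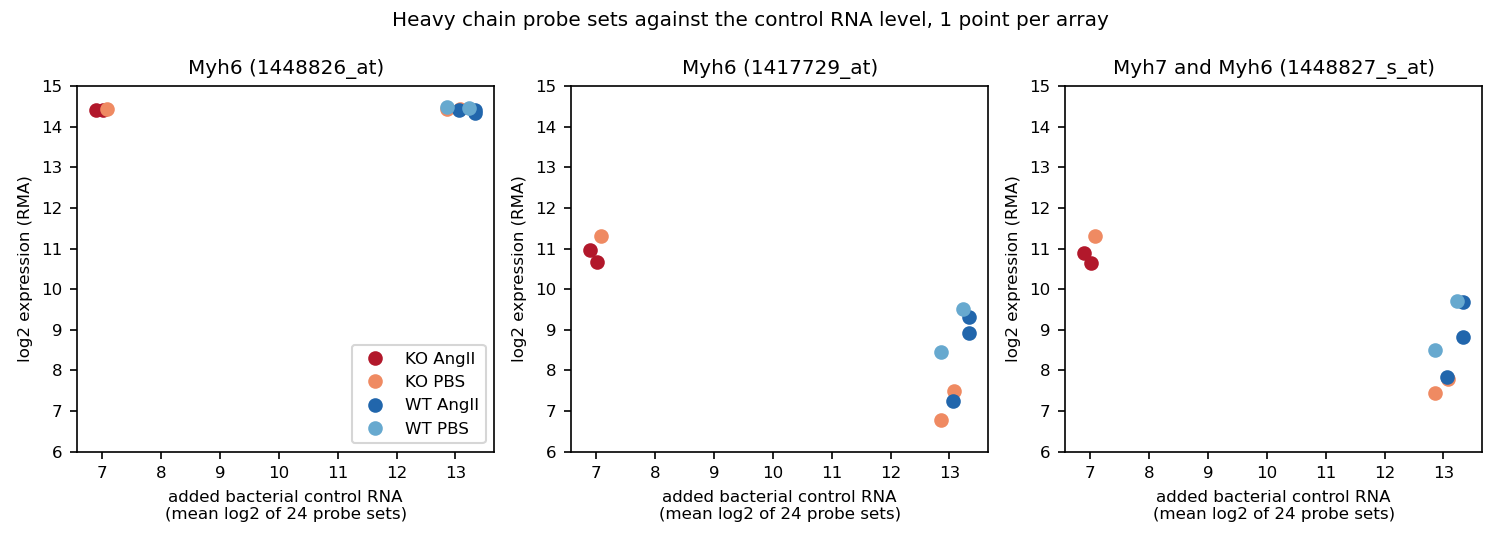
Log2 expression (y axis) of 3 heavy chain probe sets against the mean log2 level of 24 probe sets for added bacterial control RNA (x axis), 1 point per array, coloured by group. The second Myh6 probe set and 1448827_s_at read 10.65 to 11.32 on the 3 arrays with low control RNA and 6.79 to 9.72 on the 7 others, while the brighter Myh6 probe set stays at 14.32 to 14.48.

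Myh7, the beta heavy chain, was higher on average with AngII in both genotypes, by less than the arrays of a group differed among themselves. Its probe set (1448553_at) measured 11.75 and 12.44 on KO AngII, 11.44, 12.32 and 11.80 on KO PBS, 13.03, 12.09 and 12.41 on WT AngII, and 12.42 and 11.78 on WT PBS. The groups overlapped in every comparison. WT AngII 2 held the highest value of all.

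KO arrays averaged 12.10 ± 0.49 for Myh7 with AngII and 11.85 ± 0.44 with PBS (SD, n = 2 and 3). The difference was 0.24 ± 0.31 with an interval of -0.44 to 0.93 (limma adjusted p = 0.917). It became -0.10 without KO AngII 4 and 0.59 without KO AngII 3. In WT the means were 12.51 ± 0.47 with AngII and 12.10 ± 0.45 with PBS (SD, n = 3 and 2), and the difference was 0.41 ± 0.31 with an interval of -0.28 to 1.09 (limma adjusted p = 0.930). It was 0.73 without WT PBS 3 and 0.09 without WT PBS 5. Averaged over genotype the AngII difference was 0.33 ± 0.22 (limma adjusted p = 0.627), and averaged over treatment KO minus WT was -0.33 ± 0.22 (limma adjusted p = 0.520). The AngII response in KO minus that in WT was -0.16 ± 0.44, with an interval of -1.13 to 0.81, and its sign depended on single arrays, at 0.18 without KO AngII 3 and -0.51 without KO AngII 4. By mean the groups ran WT AngII, then WT PBS and KO AngII at the same 12.10, then KO PBS, and no neighbours in this order differed beyond their SD.

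The balance of the beta and alpha chains, a usual readout of hypertrophy in rodents, was described as the Myh7 value minus the brighter Myh6 value of the same array. Only its change between groups is informative, since levels of 2 probe sets cannot be set against each other. The within-array difference averaged -2.31 ± 0.50 on KO AngII and -2.59 ± 0.44 on KO PBS, and -1.87 ± 0.52 on WT AngII and -2.37 ± 0.46 on WT PBS (SD). The change with AngII was therefore 0.28 in KO and 0.50 in WT, the value in KO being -0.07 without KO AngII 4 and that in WT 0.22 without WT AngII 2. Most of each change was that of Myh7, since the Myh6 reading near the top of the scale hardly varied.

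Myh7b, a relative of the cardiac heavy chains that carries miR-499 in its transcript, was lower on average with AngII in both genotypes. Its probe set (1444305_at) measured 7.77 and 7.41 on KO AngII, 8.40, 8.77 and 8.003 on KO PBS, 7.41, 8.23 and 8.60 on WT AngII, and 8.40 and 8.86 on WT PBS. In KO the AngII and PBS arrays did not overlap, and in WT they did. The lowest WT array was WT AngII 2. The mean of the 8 fibroblast markers, listed above by group, was higher on both KO AngII arrays than on all KO PBS arrays. It was highest on WT AngII 2. Not every marker followed the mean in KO. Pdgfra read 8.53 and 8.65 on KO AngII, below its 8.67, 8.85 and 8.74 on KO PBS, and Tcf21 and Lum overlapped. The part of these markers in the Myh7b difference was not tested.

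The means of Myh7b were 7.59 ± 0.26 on KO AngII and 8.39 ± 0.38 on KO PBS, and 8.08 ± 0.61 on WT AngII and 8.63 ± 0.33 on WT PBS (SD), and in the order WT PBS, KO PBS, WT AngII and KO AngII each neighbouring pair differed by less than the larger of their SDs. AngII minus PBS was -0.80 ± 0.32 in KO (limma unadjusted p = 0.0282, adjusted p = 0.892), or -0.41 with the control RNA block. In WT it was -0.55 ± 0.32 (limma adjusted p = 0.930), or -0.22 without WT AngII 2. Averaged over genotype it was -0.68 ± 0.23 with an interval of -1.17 to -0.18 (limma unadjusted p = 0.0116, adjusted p = 0.487), or -0.48 with the block. KO minus WT was -0.24 ± 0.32 under PBS and -0.49 ± 0.32 under AngII. The value under PBS was -0.47 without WT PBS 3 and -0.01 without WT PBS 5, and that under AngII was -0.83 without WT AngII 2, -0.23 without WT AngII 4 and 0.09 with the block.

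**Figure D3:**
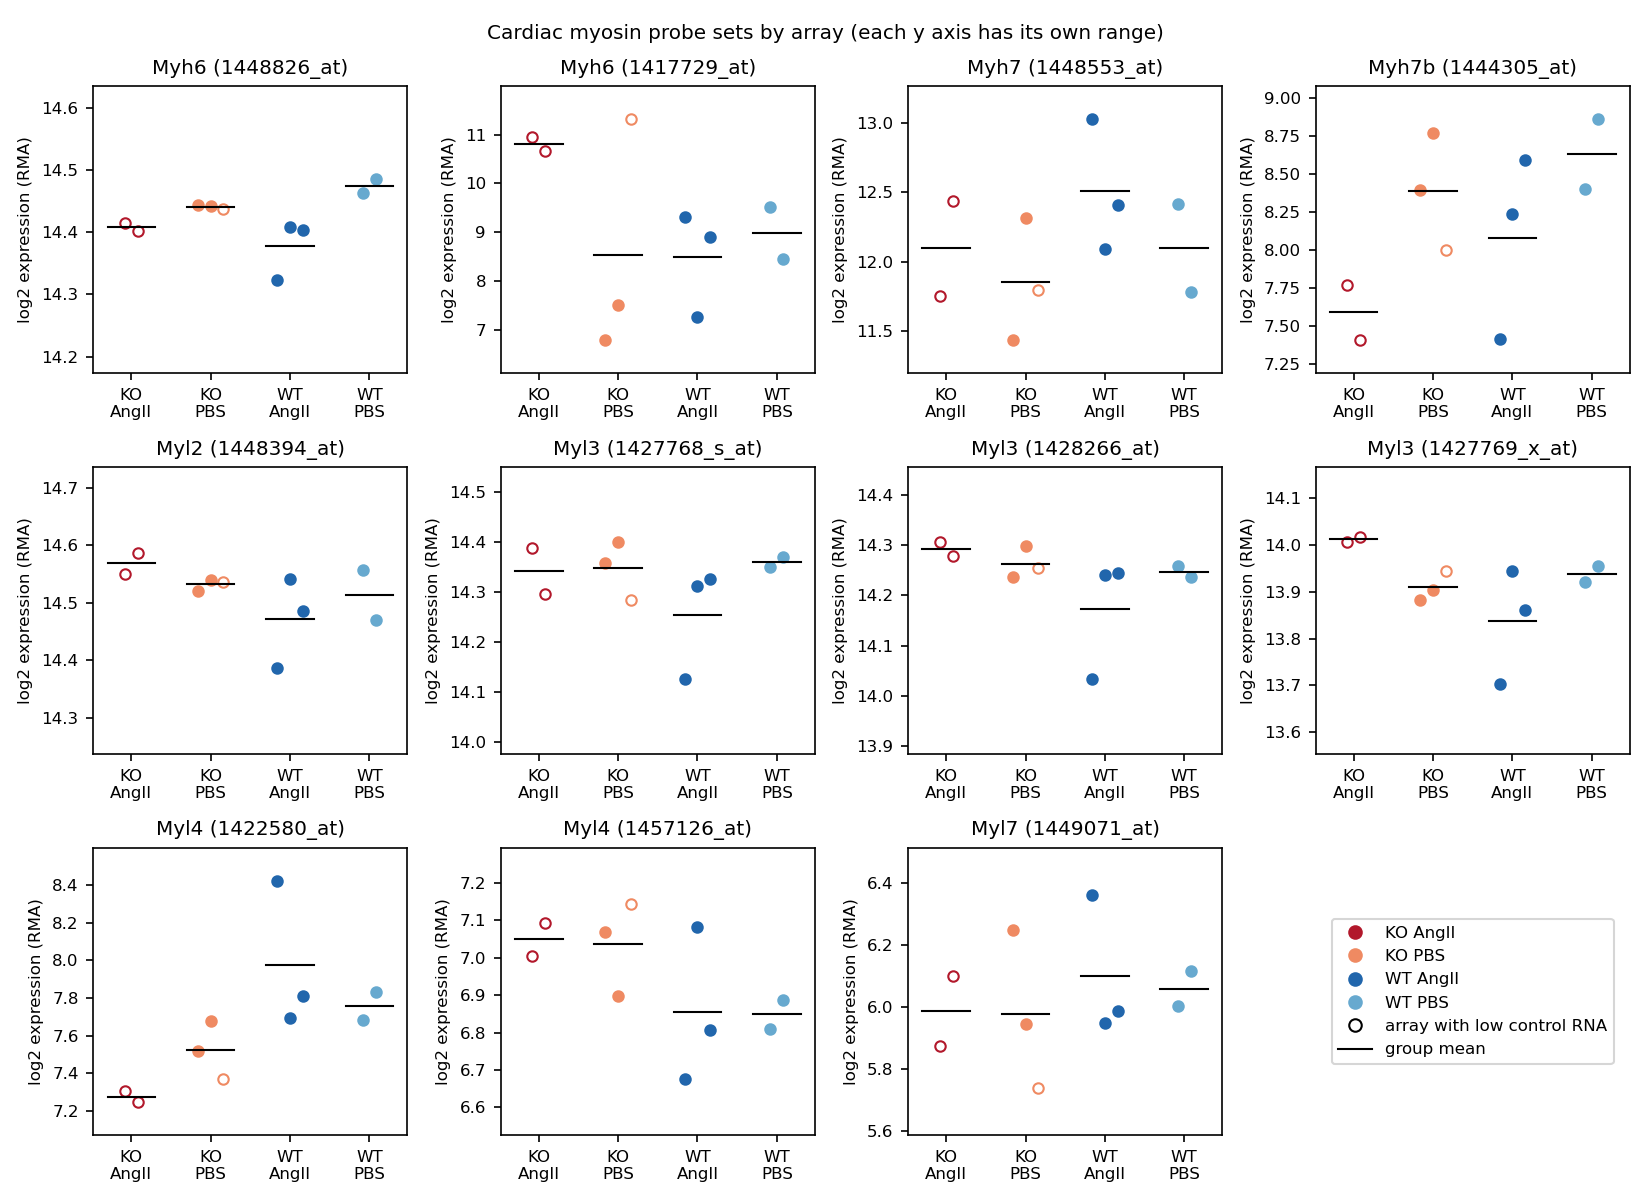
Log2 expression of the 11 member probe sets (y axis, its own range in each panel) for each array in the 4 groups (x axis), with the group mean as a line and open points for the 3 arrays with low control RNA. The open points are the highest of all in the second Myh6 panel and the lowest of all in the first Myl4 panel. Of all probe sets, 9.42% split these arrays fully from the others. WT AngII 2, the leftmost WT AngII point, is the lowest array for all 5 probe sets near the top of the scale.

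Myl2, the ventricular regulatory light chain, varied least of the members after the brighter Myh6 probe set. It (1448394_at) measured 14.55 and 14.59 on KO AngII, 14.52, 14.54 and 14.54 on KO PBS, 14.39, 14.54 and 14.49 on WT AngII, and 14.56 and 14.47 on WT PBS. AngII minus PBS was 0.04 ± 0.07 in KO, without overlap, and -0.04 ± 0.07 in WT, with overlap. The first turned to -0.01 when array medians were made equal and the second to 0.04 after repeated quantile normalisation. KO minus WT was 0.10 ± 0.07 under AngII, again without overlap (limma adjusted p = 0.735), or 0.06 without WT AngII 2, and 0.02 ± 0.07 under PBS.

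Myl7, the atrial regulatory light chain, lay near the median of all probe sets, with 46.6% of them below its mean. That mean was 6.03, on values that ran from 3.06 to 14.68. Its probe set (1449071_at) measured 5.88 and 6.10 on KO AngII, 6.25, 5.94 and 5.74 on KO PBS, 6.36, 5.95 and 5.99 on WT AngII, and 6.00 and 6.12 on WT PBS. The groups overlapped in every comparison. Its differences ran only between -0.11 ± 0.18, for KO minus WT under AngII, and 0.04 ± 0.18, for AngII minus PBS in WT, which turned to -0.01 after repeated quantile normalisation. With the control RNA level as a block KO minus WT under AngII was 0.25, and AngII minus PBS in KO was 0.25 against 0.01 without it. The Myl7 value minus the Myl2 value of an array changed by -0.02 with AngII in KO and by 0.08 in WT, the second being -0.09 without WT AngII 2.

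Myl3, the ventricular essential light chain, was read by 3 probe sets, all near the top. On 1427769_x_at, the least bright, it measured 14.01 and 14.02 on KO AngII, 13.88, 13.90 and 13.94 on KO PBS, 13.70, 13.95 and 13.86 on WT AngII, and 13.92 and 13.96 on WT PBS. The KO AngII arrays, both of them low arrays, were above all 8 others. The share of all probe sets that set KO AngII apart in this way was not counted. The other 2 probe sets did not split so, since KO PBS 3 read above KO AngII 4 on both. They ranged over 14.13 to 14.40 (1427768_s_at) and 14.03 to 14.31 (1428266_at), both lowest on WT AngII 2. KO minus WT under AngII was 0.18 ± 0.08 on 1427769_x_at (limma unadjusted p = 0.0457, adjusted p = 0.734). It was 0.12 ± 0.07 on 1428266_at and 0.09 ± 0.08 on 1427768_s_at, the last being -0.01 after repeated quantile normalisation. With the block the 3 differences were 0.12, 0.13 and 0.18, and without WT AngII 2 they were 0.11, 0.05 and 0.02. AngII minus PBS lay between -0.01 and 0.10 in KO and between -0.11 and -0.07 in WT over the 3 probe sets. Without WT AngII 2 the differences in WT were -0.03, -0.01 and -0.04 on 1427769_x_at, 1428266_at and 1427768_s_at.

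Myl4, the atrial essential light chain, which the fetal ventricle also makes, was lower on average in KO than in WT on its brighter probe set. That probe set (1422580_at) measured 7.30 and 7.25 on KO AngII, 7.52, 7.68 and 7.37 on KO PBS, 8.42, 7.69 and 7.81 on WT AngII, and 7.68 and 7.83 on WT PBS. All 5 KO arrays lay below all 5 WT arrays, but the nearest pair almost met, at 7.680 on KO PBS 3 and 7.682 on WT PBS 3. The share of all probe sets that split the genotypes in this way was not counted. WT AngII 2 was the highest array, and the 3 low arrays were the lowest, where 9.42% of all probe sets split the low from the high arrays.

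The means of this Myl4 probe set were 7.28 ± 0.04 on KO AngII, 7.97 ± 0.39 on WT AngII, 7.52 ± 0.16 on KO PBS and 7.76 ± 0.10 on WT PBS (SD). KO minus WT was -0.70 ± 0.21 under AngII with an interval of -1.15 to -0.25 (limma unadjusted p = 0.00574, adjusted p = 0.734), and -0.23 ± 0.21 under PBS (limma adjusted p = 0.883). Without WT AngII 2 the difference under AngII was -0.47, and it was also -0.47 with the control RNA level as a block. Averaged over treatment KO minus WT was -0.47 ± 0.15 (limma unadjusted p = 0.00817, adjusted p = 0.316), or -0.31 with the block. AngII minus PBS was -0.25 ± 0.21 in KO, without overlap, or -0.09 with the block, and 0.22 ± 0.21 in WT, or -0.01 without WT AngII 2.

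The second Myl4 probe set (1457126_at) ran the other way. It measured 7.005 and 7.09 on KO AngII, 7.07, 6.90 and 7.14 on KO PBS, 6.68, 7.08 and 6.81 on WT AngII, and 6.81 and 6.89 on WT PBS. KO minus WT averaged over treatment was 0.19 ± 0.11 (limma adjusted p = 0.474), or 0.08 with the block, and the correlation with the brighter probe set was r = -0.83 over the 10 arrays and -0.72 without WT AngII 2. With both probe sets averaged, KO minus WT was -0.25 under AngII and -0.14 over both treatments. The 2 probe sets differed in sign, so the genotype difference of Myl4 depends on which is read.

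Atrial tissue in the sample would carry both atrial light chains, and its markers were read beside them. Of 11 atrial cardiomyocyte markers 10 were measured, and their mean was 7.65 to 7.74 on KO AngII, 7.66 to 7.81 on KO PBS, 7.77 to 7.84 on WT AngII and 7.59 to 7.82 on WT PBS. By level, 3 of the 10 lay below the median of all probe sets, Bmp10, Sln and Mybphl, with 28.9%, 29.3% and 35.8% below them. The other 7 lay above it, with 60.9% below Dkk3, 77.9% below Kcnj3, 79.1% below Kcnj5, 81.8% below Nr2f2, 83.4% below Tbx5, 84.2% below Stard10 and 99.9% below Nppa, which a loaded ventricle also makes. Ventricular markers, 6 of 6 measured, averaged 10.39 to 10.40 on KO AngII, 10.30 to 10.47 on KO PBS, 10.38 to 10.45 on WT AngII and 10.49 to 10.50 on WT PBS. Among them Hey2 lay below the median of all probe sets, with 27.7% below it. Each of the others had at least 80.7% below it. The part of atrial tissue in the Myl4 difference was not tested.

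Across the 7 comparisons of the design, 0 of the 11 member probe sets passed an adjusted p under 0.05. The same share over all 45037 probe sets was 0% for AngII minus PBS in KO, in WT and averaged over genotype and for the difference between the 2 responses. It was 0.0111% for KO minus WT under AngII, 0.0133% under PBS and 0.0444% averaged over treatment. The adjusted p-values of the members ran between 0.734 and 0.890 for KO minus WT under AngII, between 0.877 and 0.984 under PBS and between 0.316 and 0.988 averaged over treatment. For AngII minus PBS they were at least 0.892 in KO, 0.930 in WT and 0.487 averaged over genotype. An unadjusted p under 0.05 was reached by 2 members for AngII minus PBS in KO (4.57% of all probe sets), by 0 in WT (5.23%), by 3 for KO minus WT under AngII (6.51%), by 0 under PBS (6.29%), by 0 for the difference between the responses (1.64%) and by 1 for each of the averages over genotype (9.62%) and over treatment (12.4%).

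Groups did not overlap for 5 of the 11 members between KO AngII and KO PBS, against 24.5% of all probe sets, and for 2 between WT AngII and WT PBS, against 19.7%. Between the genotypes this held for 5 under AngII, against 27.1%, and for 3 under PBS, against 24%. The median difference of the members was 0.01 for AngII minus PBS in KO and -0.07 in WT, beside medians of 0.02 and 0.01 over all probe sets. KO minus WT had a member median of 0.09 under AngII and -0.03 under PBS, beside 0.03 and 0.01. The comparisons share arrays with each other, so their values are not separate evidence.

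**Figure D4:**
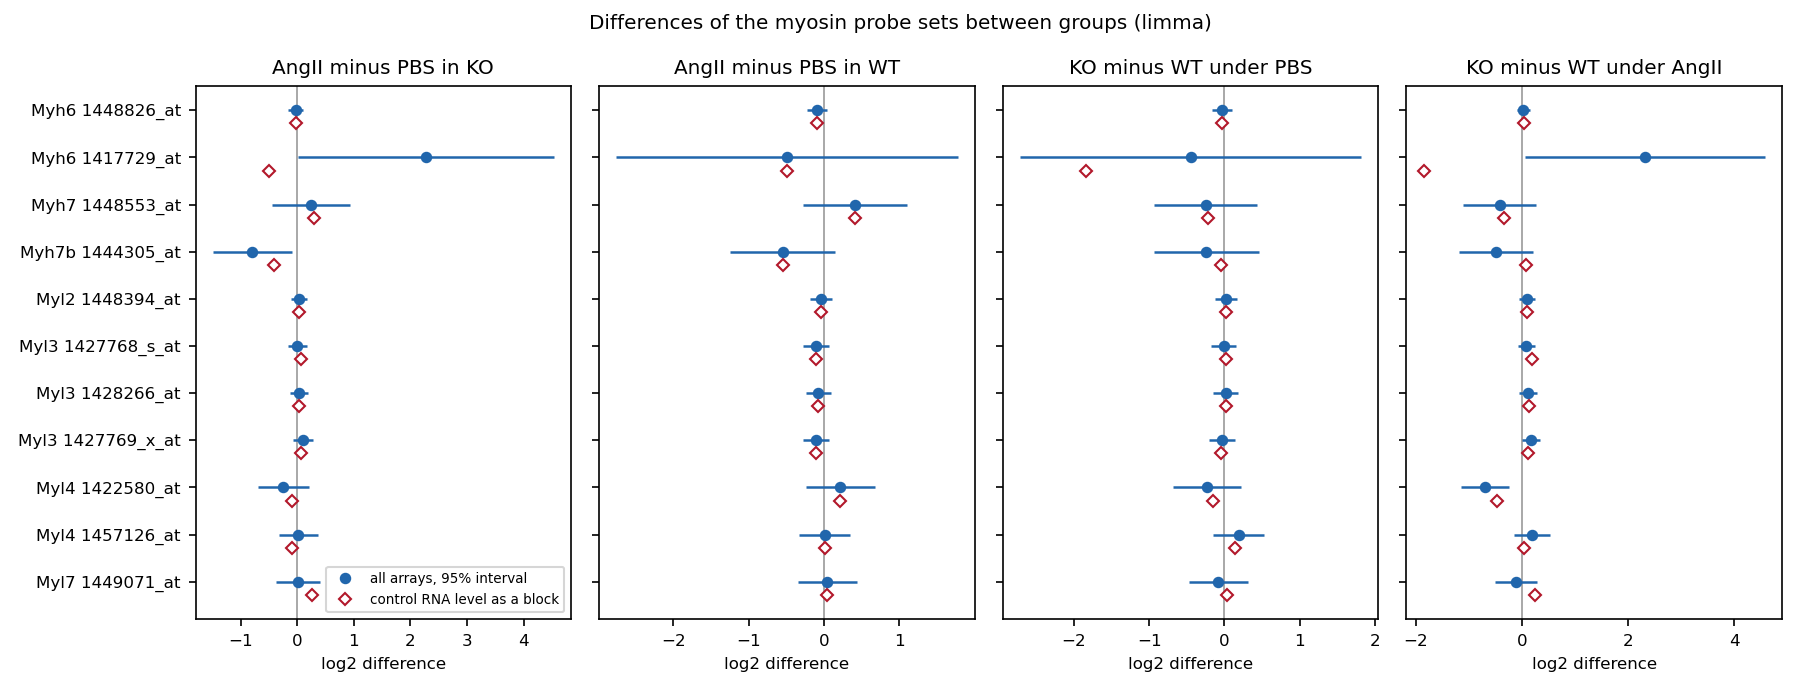
Log2 differences of the 11 member probe sets (rows) in 4 comparisons (panels, each x axis with its own range), with the 95% interval from limma over all arrays and, as open diamonds, the difference with the control RNA level as a block. The second Myh6 probe set has the widest interval and changes sign with the block in the comparisons that involve KO AngII, and the 5 probe sets near the top of the scale lie between -0.11 and 0.18 throughout.

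The genes around the motor were described from 4 lists, and 0 genes of any list passed the test in any of the 7 comparisons, with or without the control RNA block. Of the thick filament partners, 18 of 20 were measured. Myoz2, a Z-disc protein that binds calcineurin, differed by 0.27 ± 0.08 for KO minus WT under AngII (limma adjusted p = 0.734), or 0.16 with the block, and Mybpc3, the myosin-binding protein C of the heart, by -0.26 ± 0.10 in the same comparison (limma adjusted p = 0.734), or -0.02 with the block. Unc45b, a chaperone that folds myosin, had an AngII difference averaged over genotype of -0.29 ± 0.11 (limma adjusted p = 0.487), or -0.18 with the block.

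The listed kinase and phosphatase genes linked to light chain phosphorylation, 11 of 12 measured, lay lower on average in KO. Phosphorylation itself was not measured. For KO minus WT averaged over treatment 10 of the 11 were below 0, while 51.2% of all genes were above it, with a median of -0.19 beside 0.00 over all genes, and -0.09 with the control RNA block. Camk2d, a calcium-dependent kinase of the cardiomyocyte, measured 8.32 and 8.61 on KO AngII and 8.76, 8.84 and 8.78 on KO PBS, against 9.05, 8.97 and 9.32 on WT AngII and 9.13 and 9.27 on WT PBS. All KO arrays lay below all WT arrays, and the share of all probe sets that split the genotypes in this way was not counted. The Camk2d difference averaged over treatment was -0.53 ± 0.11 (limma unadjusted p = 0.000519, adjusted p = 0.219), or -0.52 with the block. Ppp1r12a, a targeting subunit of myosin phosphatase, differed by -0.49 ± 0.13 (limma adjusted p = 0.257), or -0.30 with the block. Its relative Ppp1r12b had an AngII difference in KO of -0.32 ± 0.15 (limma adjusted p = 0.892), or -0.19 with the block.

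Myosin II chains of skeletal, smooth muscle and non-muscle cells, 17 of 19 measured, had medians between -0.05 and 0.01 in the 7 comparisons. Myh1, a fast skeletal heavy chain whose probe set lay low on the scale at 4.92 to 5.61, differed by 0.35 ± 0.10 for KO minus WT averaged over treatment (limma adjusted p = 0.290), or 0.22 with the block. The non-muscle heavy chain Myh9 differed by -0.37 ± 0.17 in that comparison (limma adjusted p = 0.396), or -0.09 with the block, and Myh14 by -0.42 ± 0.20 with AngII in KO (limma adjusted p = 0.892), or -0.12 with the block.

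Factors known to regulate the myosin genes, 27 of 30 measured, were below 0 for 22 of the 27 for AngII minus PBS in WT, with a median of -0.14 beside 0.00 over all genes, 49% of which were above 0. For KO minus WT under PBS, which shares the WT PBS arrays, 20 of the 27 were below 0, with a median of -0.15, while 49.4% of all genes were above 0. Under AngII, without those arrays, 15 were below 0 for KO minus WT, while 50.9% of all genes were above 0. The median there was -0.06, or 0.05 without WT AngII 2. In KO 16 were below 0 for AngII minus PBS, with a median of -0.02, while 47.9% of all genes were above 0. Hand2, a transcription factor of the developing ventricle, differed by -0.66 ± 0.20 with AngII in WT (limma adjusted p = 0.930). Tbx20, a cardiac T-box factor, differed by -0.36 ± 0.11 for KO minus WT averaged over treatment (limma adjusted p = 0.300), or -0.55 with the block. Sp3, a factor that binds GC-rich promoters, differed by -0.74 ± 0.22 in the same comparison (limma adjusted p = 0.306), or -0.22 with the block.

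The genes whose values ran most like each member over the 10 arrays were named among 12122 genes of at least median level (12123 for Myl7), by Pearson's r as a description. The arrays share the control RNA split and the departure of WT AngII 2, so a high r over 10 points can follow either. The closest to Myh6 (brighter probe set) were Acot1 (0.966), Nceh1 (0.952) and Mfn1 (0.949). Those to Myh7 were Slamf9 (0.947), Ccpg1os (0.905) and Myl1 (0.905), and those to Myh7b were Ndufa6 (0.968), Klhl21 (0.958) and Ccdc141 (0.956). Myl2 ran most like Sla2 (0.960), 4922502B01Rik (0.933) and Sprr2k (0.922), and Myl3 like Cdc37l1 (0.970), Fastk (0.940) and Dgat2 (0.940). Myl4 ran most like Dcbld2 (0.982), Agrn (0.967) and Ifnar2 (0.965), and Myl7 like Alox5ap (0.910), Man2a1 (0.906) and Ttyh3 (0.894). None of these genes is a member.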

How the data were processed

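Total RNA of mouse hearts was labelled with biotin and hybridised to 1-colour Affymetrix arrays, per the labels. The authors deposited log2 expression values of 45101 probe sets, and the submitters' processing notes name RMA, with no version. The 64 control probe sets were left out. Genes were named from the platform annotation and updated by Entrez identifier with the RefSeq table of GRCm38.p6. A gene's brightest probe set stands for it in the lists. The fit used limma 3.58.1 under R 4.3.3 (4 group means over 10 arrays, eBayes with trend, two-sided), with Benjamini-Hochberg adjustment over 45037 probe sets and a threshold of 0.05. From each list the text names up to 3 genes with the smallest unadjusted p, and for each member the 3 genes with the highest r. The members, lists and alternatives were chosen with earlier results of these data known. RMA shares information between arrays and compresses small differences of dim probe sets.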

Additional observations from a re-analysis of the deposited data

How the results depend on the processing

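The count of called member probe sets was 0 in 137 of 139 combinations of a comparison and a setting, the reported fit included. The settings were array medians made equal, a second quantile normalisation, a test of the brighter probe sets alone, other variance priors, array weights, the control RNA level as a block, only the high arrays, only the groups compared, the title number as a block, and each array left out in turn, where every count was 0. The exceptions came with array weights, which called 2 members for KO minus WT under AngII (Myh7b at -0.95, limma adjusted p = 0.0157, and Myl4 probe set 1422580_at at -0.54, limma adjusted p = 0.0179) and 1 averaged over treatment (Myl4 1422580_at at -0.39, limma adjusted p = 0.0421). Array weights also called 2911 and 1562 of all 45037 probe sets in these 2 comparisons, against 5 and 20 in the reported fit; the cause was not tested. Whether title numbers pair the arrays cannot be told from residuals, since those of a group of 2 arrays mirror each other. Residuals of 10 same-numbered pairs correlated between -0.355 and 0.103, with 1 of 10 over 0.1. Those of 27 pairs with different numbers correlated between -0.309 and 0.311, with 5 over 0.1. With the title number as a replicate block 0 members were called in each comparison, and 14 of 77 differences had the other sign, among them Myh7 for AngII minus PBS in WT (-0.02). Over 1466 alternatives for single probe sets 3 were called and 144 had the other sign. The median of all probe sets moved by less than 0.1 under the scalings. Only the high arrays could be fitted for AngII minus PBS in WT and KO minus WT under PBS alone, since both KO AngII arrays are low. With 2 or 3 arrays a group, a count of 0 does not show that nothing changed. The difference of 2.32 on the second Myh6 probe set, for KO minus WT under AngII, was not called in the reported fit. Its SE of 1.04 was the largest of the members, and the difference was -1.85 with the control RNA level as a block. Whether the 5 members near the top of the scale were saturated was not tested.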
